A study of Mus musculus with 9 samples.

Results

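The proximal tubule of the kidney owes its transporters and its fatty acid metabolism to a small set of transcription factors, and 8 of them are described here in sorted proximal tubular cells of diabetic mice. The 8 genes, Hnf4a, Hnf4g, Ppara, Rxra, Nr1h4, Pax2, Pax8 and Maf, were chosen by name from the 24421 genes of the deposited table. Hnf4a and Hnf4g encode related nuclear receptors, of which HNF4A drives genes of the differentiated tubule. Ppara and Nr1h4 encode PPARA, a receptor for fatty acids, and FXR, a receptor for bile acids, and both bind DNA with the common partner RXRA. Pax2 and Pax8 act in the formation of the nephron, and Maf encodes a large Maf factor of the basic leucine zipper type.

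Poly(A) RNA of sorted kidney cells was sequenced from 9 C57BL/6 mice in 3 groups of 3. The *db/db* mouse lacks a working leptin receptor because both copies carry the Lepr db allele, and it becomes obese and diabetic, whereas the heterozygous *db/m* mouse served as the non-diabetic control. The *db/db*-dapa mice were *db/db* mice that drank dapagliflozin, an inhibitor of the glucose transporter SGLT2, at 1.5 mg/kg/day for 8 weeks, while *db/db* mice were given vehicle. All mice carried a CreERT2 cassette in the Slc34a1 locus and a tdTomato reporter in the Rosa26 locus, and all received tamoxifen at 8 weeks of age. *db/db*-dapa mice are called treated below. Living cells of the cortex with tdTomato fluorescence were sorted, so that Slc34a1 was both the source of the label and a marker of the cells. Each library came from 1 mouse. The labels themselves give the tissue as kidney and do not mention the sort.

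The deposited values are named FPKM but have the form of estimated counts, since 85.9% of those above 0 are whole numbers and their sums differ between mice. Rounded counts summed to 6571539, 5754864 and 4817670 in *db/m* mice, to 2733314, 4951030 and 7635630 in *db/db* mice and to 6981183, 7626047 and 9033062 in *db/db*-dapa mice. Levels are given in CPM, the count relative to a library size scaled by the TMM method. At these depths 3 counts were equal to between 0.339 CPM (*db/db*-dapa replicate 3) and 1.02 CPM (*db/db* replicate 1). A gene was tested at 0.3 CPM or more in at least 2 of the 9 mice, which left 15583 genes and all 8 transcription factors. The word called is used for genes whose log2 fold change was beyond 1 in either direction and whose adjusted p in edgeR's quasi-likelihood test was under 0.1, with adjustment over all genes tested.

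A pair of features of the libraries bore on every comparison. *db/db* replicate 3 resembled the treated mice more than its own group: across tested genes, Pearson's r of log2(CPM + 1) was 0.975, 0.989 and 0.991 with *db/db*-dapa replicates 1, 2 and 3, against 0.955 and 0.964 with *db/db* replicates 1 and 2. The libraries also differed in how much long transcripts weighed against short ones. The median log2 deviation of the 1891 genes with the longest transcripts (5289 bases or more) was compared with that of the 1891 with the shortest (1973 bases or fewer). The first median minus the second was -0.37, -0.07 and -0.76 in *db/m* mice, -0.17, -0.28 and 0.73 in *db/db* mice and -0.04, 0.41 and 0.53 in *db/db*-dapa mice. Long transcripts thus weighed least in *db/m* replicate 3 and most in *db/db* replicate 3. Most results on the transcription factors are therefore given also with an offset that removes this trend library by library, an alternative chosen after seeing the data. Many are given with *db/db* replicate 3 left out as well.

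The cells carried the markers of the sorted type. The 4 markers of the first segment, S1, led by Slc5a2, the gene of SGLT2, summed to 1512, 2091 and 1773 CPM in *db/m* mice, 3923, 2250 and 2084 in *db/db* mice and 2542, 2596 and 2098 in *db/db*-dapa mice. Slc34a1 itself, on chr13:55398187-55415592 of GRCm38 (mm10), had means ± SD of 3819 ± 312 CPM (*db/m*), 5110 ± 954 CPM (*db/db*) and 4549 ± 83.5 CPM (*db/db*-dapa), each of 3 mice. Markers of the last segment, S3, were not even across groups. Their sum was 1332, 1359 and 1118 CPM in *db/m*, 139, 236 and 907 in *db/db* and 661, 686 and 935 in *db/db*-dapa mice, so that every diabetic mouse lay below every *db/m* mouse. Within that list Slc22a7, an organic anion transporter, fell from 73.5, 48.3 and 42.9 CPM in *db/m* mice to at most 0.525 CPM in any diabetic mouse, and it was called in both comparisons with *db/m* in 21 of 21 alternatives. Slc5a1, the gene of SGLT1 and another marker of S3, did not follow the sum, at 77.6, 67.5 and 69.3 CPM in *db/m*, 28.9, 77.4 and 170.5 in *db/db* and 133, 131 and 147 in *db/db*-dapa mice. In bulk RNA, fewer cells of a type and less RNA per cell cannot be told apart.

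Markers of other cells were present too, none of them at 0 in all mice. The 11 collecting duct markers, led by Aqp2, summed to 523, 319 and 1017 CPM in *db/m*, 642, 388 and 345 in *db/db* and 351, 216 and 256 in *db/db*-dapa mice. All 11 had lower means in *db/db*-dapa than in either other group, although 1 of them was higher than in *db/m* mice without *db/m* replicate 3. The 6 markers of the thick ascending limb and distal convoluted tubule, led by Umod, summed to 1180, 963 and 2202 CPM in *db/m*, 1401, 596 and 707 in *db/db* and 708, 632 and 718 in *db/db*-dapa mice. *db/m* replicate 3 thus held the most RNA of both distal lists, and the second of these sums was above that of the S1 markers there. The 9 immune markers, led by Cd74, summed to 592, 432 and 246 CPM in *db/m*, 450, 404 and 145 in *db/db* and 385, 207 and 115 in *db/db*-dapa mice. Their sum was lowest in replicate 3 of each group. Podocyte markers summed to 255 CPM in *db/db*-dapa replicate 1 and to between 18.0 and 80.9 in the other mice, with Podxl leading. Endothelial markers, led by Plvap, lay between 42.0 and 184 CPM and stromal markers, led by Acta2, between 5.66 and 27.7. Globin and other red blood cell genes, led by Hba-a1, reached 1462 CPM in *db/db* replicate 2 and 29.6 in *db/db*-dapa replicate 3. Injury markers, led by Cd24a, summed to 127, 123 and 131 CPM in *db/m* and to between 54.7 and 112 in the diabetic mice, and immediate-early genes, led by Jun, to between 2713 and 7723. The part of these cells and responses in the results on the transcription factors was not tested.

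Compared per kilobase of the longest transcript, Hnf4a was the most abundant of the 8 genes, at a mean level of 207.5 CPM per kilobase over the 9 mice. Nr1h4 followed at 113, and both lay above the other 6 genes in every mouse. Maf at 47.9, Ppara at 43.5, Pax8 at 33.4 and Rxra at 29.8 CPM per kilobase formed a middle group whose values overlapped between mice. Hnf4g at 5.42 and Pax2 at 4.45 CPM per kilobase were lowest in every mouse and overlapped with each other. With the length of all exons in place of the longest transcript, Ppara at 38.7 lay above Maf at 37.0 and Rxra at 26.8 above Pax8 at 18.7, while the first and last pairs kept their places.

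**Figure D1:**
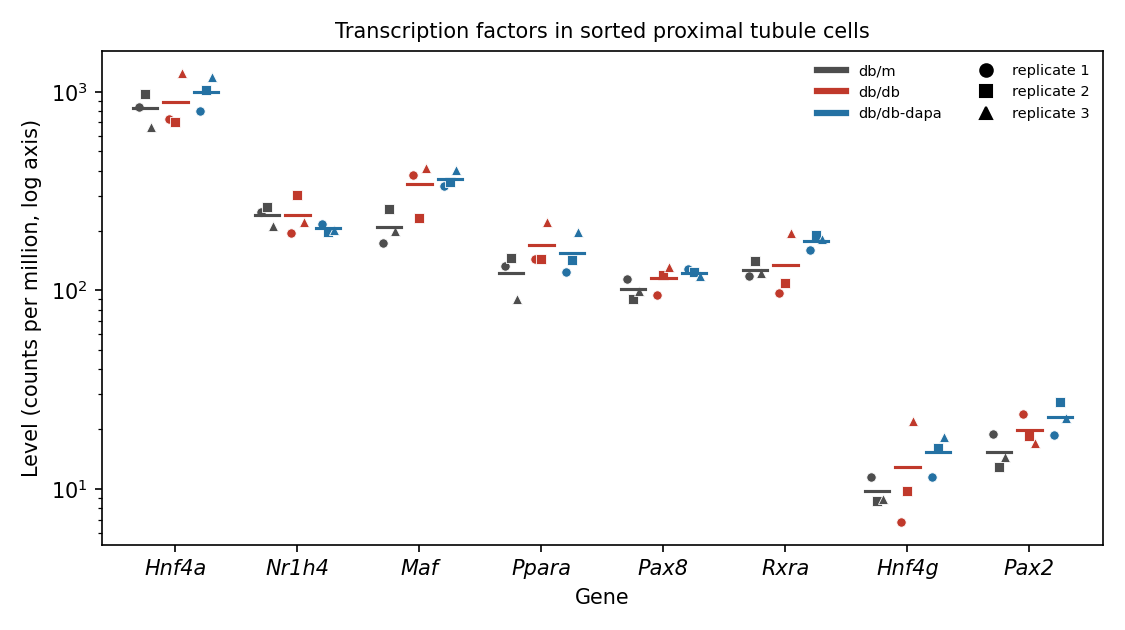
Level of each transcription factor in CPM on a log axis, with a point for each mouse (marker shape gives the replicate), a bar for the group mean of 3 mice, and genes in order of mean level per kilobase. *db/db* replicate 3 (triangles) is the highest of the 9 mice for 6 of the 8 genes, and for Maf each treated mouse is above any *db/m* mouse.

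The HNF4 pair differed in level. Hnf4a, on the plus strand of chr2:163506808-163572910, was at 839, 977 and 663 CPM in *db/m* mice, 728, 702 and 1236 in *db/db* mice and 799, 1020 and 1180 in *db/db*-dapa mice. The groups overlapped, and the *db/db* mean of 889 ± 301 CPM (SD, n = 3) rested on replicate 3. Hnf4g, the paralog on chr3:3508030-3658052, was at 11.5, 8.72 and 8.88 CPM in *db/m* mice, 6.80, 9.80 and 21.9 in *db/db* mice and 11.5, 16.2 and 18.3 in *db/db*-dapa mice. Its lowest and highest values of the 9 mice were both in *db/db*, replicates 1 and 3, whose counts were 20 and 173. Hnf4aos, annotated antisense to Hnf4a with 0 exon bases in common, lay between 7.07 and 22.9 CPM.

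PPARA and FXR, the metabolic receptors, differed in how they varied. Ppara, on chr15:85734983-85802819, was at 132, 146 and 90.4 CPM in *db/m* mice, 143, 143 and 220 in *db/db* mice and 124, 142 and 197 in *db/db*-dapa mice. Its low value in *db/m* replicate 3 and its high values in replicate 3 of the other groups set the range. Nr1h4, on the minus strand of chr10:89454234-89533585, was at 249, 261 and 211 CPM in *db/m* mice, 194.7, 301 and 221 in *db/db* mice and 217, 198 and 202 in *db/db*-dapa mice. It was the only member whose means were lower in both diabetic groups than in *db/m* mice, and its values in *db/db*-dapa mice lay close together at 205 ± 10 CPM (SD, n = 3). Rxra, which encodes their DNA-binding partner, on chr2:27676440-27762957, was at 118, 141 and 122 CPM in *db/m* mice, 96.5, 109 and 195.4 in *db/db* mice and 160, 191 and 182 in *db/db*-dapa mice. Every treated mouse thus lay above every *db/m* mouse, and *db/db* mice spanned the range of both.

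Of the developmental factors, Pax8 varied little across mice and Pax2 more. Pax8, on the minus strand of chr2:24420560-24475599, was at 114, 90.9 and 99.0 CPM in *db/m* mice, 94.8, 120 and 131 in *db/db* mice and 127, 124 and 118 in *db/db*-dapa mice. Its coefficient of variation over the 9 mice, 12.9%, was the smallest of the 8 genes. Pax8 shares 367 exon bases with Gm13415, a transcript annotated on the opposite strand, and Maf shares exon bases with an antisense gene too. The libraries were made with a stranded kit, but whether strand was used in the counting is not given in the sources used here, so the levels of Pax8 and Maf are uncertain by those stretches. Pax2, on chr19:44756045-44837871, was at 18.9, 12.9 and 14.4 CPM in *db/m* mice, 23.8, 18.4 and 17.1 in *db/db* mice and 18.7, 27.4 and 22.7 in *db/db*-dapa mice. Within *db/db* mice it was lowest in replicate 3, the mouse that was highest for most of the other genes.

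Maf had the largest log2 fold changes against *db/m* of the 8 genes, although with the length offset those of Hnf4g were larger. On the minus strand of chr8:115682942-115707794, it was at 173, 255 and 200 CPM in *db/m* mice, 381, 231 and 414 in *db/db* mice and 334, 350 and 405 in *db/db*-dapa mice. All treated mice were above all *db/m* mice, while *db/db* replicate 2 fell among the *db/m* values. Maf has the longest transcript of the 8 genes, 6360 bases, and shares 440 exon bases with the antisense gene Gm15655, not in the table.

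In the first comparison, of diabetic with non-diabetic mice, 0 of the 8 transcription factors were called in edgeR's quasi-likelihood test, against 194 of 15583 genes (1.24%). At an adjusted p under 0.1 alone there were again 0 of 8, against 1.67% of all genes, and at an unadjusted p under 0.05 there was 1, Maf, against 13.7%. DESeq2, limma and limma-voom with sample quality weights also called 0 of 8. No member had *db/db* mice all on one side of all *db/m* mice, against 16.4% of all genes. Of the 8 values, 7 were positive, with a median log2 fold change of 0.26 (0.23 with the length offset) beside 0.02 for all genes, of which 51.6% were positive. With *db/db* replicate 3 left out it was 0.06 and 5 of 8 were positive, and with limma-voom it was 0.03 with 4 of 8 positive. The count of called genes over the whole table was 85 without *db/m* replicate 1, 126 without *db/m* replicate 3 and 113 without *db/db* replicate 2.

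Maf had the largest difference between *db/db* and *db/m* mice, 0.71 on the log2 scale (standard error 0.236, 95% interval 0.19 to 1.22, adjusted p = 0.222), a fold of 1.63. The adjusted p of Maf ranged from 0.0888 with DESeq2 to 0.51 over the alternatives, and the log2 fold change was 0.48 with the length offset and 0.53 without *db/db* replicate 3. Next came Ppara at 0.46 on the log2 scale (standard error 0.254, adjusted p = 0.457), which the offset left at 0.46. It was 0.21 without *db/db* replicate 3, 0.22 with limma-voom and 0.28 without *db/m* replicate 3. With the offset, Ppara was the only member whose *db/db* values all lay above those of *db/m* mice. For Hnf4g the log2 fold change was 0.44 (standard error 0.38) and for Pax2 it was 0.34 (standard error 0.232). Pax8 had a value of 0.18, Hnf4a 0.11, Rxra 0.08 and Nr1h4 -0.01 on the log2 scale, with adjusted p-values from 0.673 to 0.989. With the length offset Hnf4g was at 0.58, Pax2 at 0.28, Pax8 at 0.19, Hnf4a at 0.02, Rxra at -0.08 and Nr1h4 at 0.13. Leaving out *db/db* replicate 3 gave 0.08 for Pax8 and 0.43 for Pax2. The directions of Hnf4a, Hnf4g and Rxra turned with limma-voom (-0.16, -0.01 and -0.18) and with 1 library: without *db/db* replicate 3 the log2 fold change was -0.22 for Hnf4a, -0.21 for Hnf4g and -0.31 for Rxra. That of Hnf4a was also negative, at -0.03, without *db/m* replicate 3. The sign of Nr1h4 was positive under 3 scalings and with any 1 of 4 libraries left out, at most 0.13 with the length offset. The 95% intervals of all 8 genes reached no further than -0.46 on the low side and 1.28 on the high side, and those of Ppara, Hnf4g and Maf reached past the fold threshold.

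In the second comparison, of treated diabetic with *db/m* mice, 0 of 8 were called in edgeR's quasi-likelihood test, against 164 genes (1.05%), and 0 of 8 had an adjusted p under 0.1, against 1.31%. At an unadjusted p under 0.05 there were 2, Pax2 and Maf, against 18.2% of all genes. DESeq2, limma and limma-voom each called 0 of 8. For 4 of the 8, Hnf4g, Rxra, Pax8 and Maf, all *db/db*-dapa mice lay above all *db/m* mice, against 28.1% of all genes without overlap. Hnf4g is among them by a near tie, since the lowest treated and the highest *db/m* mouse were both at 11.5 CPM. The count was 5 with library totals, which added Pax2, and 3 with the length offset, which removed Pax8, against 24.6% of all genes. Of the 8 values, 7 were positive with a median log2 fold change of 0.41 (0.26 with the length offset), beside -0.02 for all genes, of which 48.5% were positive. The 4 markers of S1 were positive too, with a median of 0.50 here and 0.64 in untreated *db/db* against *db/m* mice.

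For Maf the difference between treated and *db/m* mice was a log2 fold change of 0.79 (standard error 0.236, 95% interval 0.28 to 1.31, adjusted p = 0.165), a fold of 1.73. With the length offset it was 0.46, and over all alternatives it lay between 0.46 and 0.96 with an adjusted p from 0.0119 to 0.503. Hnf4g had a log2 fold change of 0.66 (standard error 0.374, adjusted p = 0.353), and unlike most members it was larger, 0.75, with the offset. Pax2 had a value of 0.57 (standard error 0.228, adjusted p = 0.238), 0.41 with the offset. By limma-voom 4 members had an adjusted p under 0.1, 0.0418 for Pax2, 0.0733 for Hnf4g, 0.0256 for Rxra and 0.0119 for Maf. That tool called 1619 of all 15583 genes in this comparison even with the fold threshold, against 164 in edgeR's test. The highest adjusted p over the alternatives was 0.562 for Pax2 and 0.671 for Hnf4g. Rxra had a value of 0.48 (standard error 0.244, adjusted p = 0.309), 0.26 with the offset. Ppara, Pax8 and Hnf4a lay at 0.33, 0.28 and 0.27 on the log2 scale, and Nr1h4, the FXR gene, at -0.23. With the length offset these 4 were at 0.27, 0.22, 0.11 and -0.09. Over the alternatives Ppara ranged from 0.12 to 0.47, Pax8 from 0.20 to 0.37, Hnf4a from 0.11 to 0.42 and Nr1h4 from -0.32 to -0.09. Without *db/db* replicate 3, whose group is not in this comparison but shares the estimate of the spread, Rxra and Maf had an adjusted p under 0.1. The same 2 genes had one in edgeR's test with only the 2 groups compared, and Maf had one with DESeq2. Those 2 settings called 630 and 507 of all genes. No member reached the fold threshold in any of these settings. Over the alternatives the adjusted p of Rxra ranged from 0.0256 to 0.598. The number of genes called in the whole table moved with nearly every library. It was 37, 78 and 54 without *db/m* replicates 1, 2 and 3, and 664 without *db/db* replicate 3. Of the treated mice, leaving out replicate 1 gave 264, replicate 2 gave 14 and replicate 3 gave 41.

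The last comparison was of treated with untreated diabetic mice. In edgeR's quasi-likelihood test 0 of the 15583 genes (0%) were called, 0 (0%) had an adjusted p under 0.1, and 808 (5.19%) had an unadjusted p under 0.05. Of the 8 transcription factors, 0 were called, 0 had an adjusted p under 0.1, 0 had an unadjusted p under 0.05, and 0 were without overlap between groups, against 10.2% of all genes. Over all genes DESeq2 called 13, limma 0 and limma-voom 449, and each of these tools called 0 of the 8. Without *db/db* replicate 3 edgeR called 272 genes, and without *db/db*-dapa replicate 2 it called 1. The median log2 fold change of the 8 was 0.13 with 6 positive, beside -0.01 for all genes, of which 48.7% were positive. It was 0.24 with 7 positive when *db/db* replicate 3 was left out, 0.28 with limma-voom, 0.06 with 5 positive with the length offset, and 0.07 with upper quartile factors and with library totals.

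Rxra had the largest value between treated and untreated *db/db* mice, 0.41 on the log2 scale (standard error 0.244, 95% interval -0.13 to 0.94, adjusted p = 0.854). Its lowest value over the alternatives was 0.22. Without *db/db* replicate 3 it was 0.80 with an adjusted p of 0.0827, and there Hnf4g, at 0.88, had the larger value. The adjusted p of Rxra was under 0.1 with limma-voom too, and it ranged up to 1 over the alternatives. Pax2 lay at 0.23, Hnf4g at 0.21 and Hnf4a at 0.17 on the log2 scale, and at 0.13, 0.17 and 0.09 with the length offset. Their lowest values over the alternatives were 0.09 (Pax2), -0.06 (Hnf4g) and 0.02 (Hnf4a), and their highest 0.38, 0.88 and 0.50. With *db/db* replicate 3 left out, Hnf4g was at 0.88 (adjusted p = 0.154) and Hnf4a at 0.50 (adjusted p = 0.23), and both had, with Rxra, an unadjusted p under 0.05. Pax8 and Maf were both at 0.09 (0.21 and 0.27 without *db/db* replicate 3), and at 0.03 and -0.02 with the length offset. Ppara lay at -0.13 (95% interval -0.69 to 0.42) and at 0.12 without *db/db* replicate 3. Nr1h4 lay at -0.22 (95% interval -0.63 to 0.20) and was negative under every alternative, between -0.35 and -0.02. The intervals of 7 members stayed below the fold threshold on both sides, and that of Hnf4g reached 1.02. The comparisons share mice, *db/m* in the first 2 and *db/db* in the first and last, so their values are not independent of each other.

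**Figure D2:**
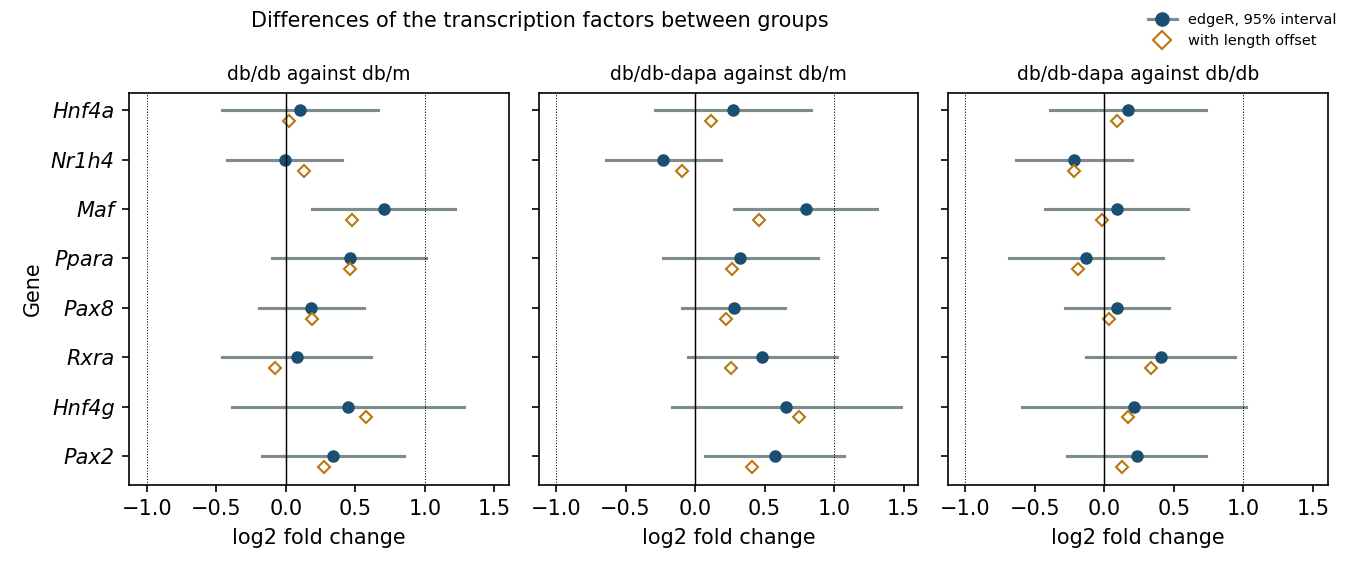
Log2 fold change of each transcription factor in the 3 comparisons (panels) from edgeR with 3 mice a group; filled points are fitted values, lines their 95% intervals, open diamonds the values with the length offset, and dotted lines the fold threshold of 1. Only the intervals of Maf in both comparisons with *db/m* and of Pax2 between treated and *db/m* mice lie above 0.

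Across the 9 mice the members fell into those that followed *db/db* replicate 3 and those that did not. That mouse was highest for 6 of the 8 genes, while *db/db* replicate 2 was highest for Nr1h4 and *db/db*-dapa replicate 2 for Pax2. Correlations of log2(CPM + 1) over the 9 mice describe this, and the points share group, depth and the length trend. Pearson's r was 0.84 for Hnf4a with Rxra and 0.62 once the length trend was removed. For Hnf4a with Hnf4g it was 0.84 and 0.79, and for Hnf4g with Rxra 0.89 and 0.75. Ppara went with Hnf4a (0.83 and 0.75) and Hnf4g (0.68 and 0.66) and less with its partner Rxra (0.53 and 0.15), and Pax8 went with Hnf4g (0.77 and 0.60). For Hnf4a with Maf, in contrast, r was 0.59 and only 0.12 once the trend was removed. Nr1h4 had a negative r with 7 of 7 other members before the adjustment, from -0.02 with Pax8 to -0.59 with Maf. After it, r was negative with 3 of 7 (Rxra, Pax2 and Maf) and positive with Hnf4a (0.16), Hnf4g (0.11), Ppara (0.43) and Pax8 (0.24).

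Among 9134 genes with a mean of 10 CPM or more, the closest pattern over the 9 mice was that of Fbxw11 for Hnf4a (r = 0.991), Cep68 for Hnf4g (0.993), Prdm2 for Ppara (0.982) and Fam171a1 for Rxra (0.999). Ltn1, Lrp12, Exoc2 and Abca3 came next for the same 4 genes, with r of 0.990, 0.991, 0.977 and 0.991. For Maf it was Enpp2 (0.988), followed by the neutral amino acid transporter gene Slc6a19 (0.983). For Pax8 it was Aldh1a7 (0.966) and then Aldh1a1 (0.938), both aldehyde dehydrogenase genes. Nr1h4 and Pax2 had no such close match, with Orc3 at 0.941 and Tsc22d1 at 0.894 for Nr1h4 and Nup93 at 0.901 and Efnb1 at 0.890 for Pax2. These are the highest of 9134 values each and carry no test, and the length trend was not removed from them.

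Sall1, a zinc finger regulator of the developing kidney, rose in *db/db* mice and was called by edgeR as 1 of 19 tested regulators of the tubule outside the 8 genes. It was at 50.2, 41.9 and 35.3 CPM in *db/m* mice, 102, 71.0 and 105 in *db/db* mice and 69.1, 65.8 and 98.2 in *db/db*-dapa mice. Untreated *db/db* and *db/m* mice differed by 1.12 on the log2 scale (standard error 0.226, adjusted p = 0.046, from 0.000699 to 0.16 over the alternatives). The call was lost with the length offset, where the value was 0.97, and with limma-voom, where it was 0.93. In this comparison DESeq2 called 1 of the 19 higher and 1 lower, limma 1 higher and limma-voom 0. The lower one was Sox9, a factor of injured and developing tubules, at -2.28 (adjusted p = 0.0443, against 0.203 in edgeR's test), and it was the only gene of the list called without *db/m* replicate 3, at -2.78. The call of Sall1 was lost too without *db/m* replicates 1, 2 and 3 (adjusted p of 0.112, 0.151 and 0.16) and without *db/db* replicate 1 (0.103). In treated against *db/m* mice, 0 of the 19 were called in edgeR's test, with 7 at an unadjusted p under 0.05, and 0 by DESeq2, 0 by limma and 2 by limma-voom. In treated against untreated *db/db* mice, 0 were called with 3 at an unadjusted p under 0.05, and 0, 0 and 2 by those tools, and 1 by edgeR with *db/db* replicate 3 left out. Cebpa, a liver and kidney regulator of metabolism, was at 21.8, 27.0 and 31.1 CPM in *db/db* and 36.1, 49.0 and 36.3 in *db/db*-dapa mice, without overlap. Esrra, a receptor that acts on mitochondrial genes, was the most abundant of the list at 70.3 CPM per kilobase. Six2, a factor of nephron progenitors, did not pass the filter. The medians of the list were 0.12, 0.20 and 0.04 in the 3 comparisons, the last turning to -0.06 with the length offset, -0.02 with upper quartile factors and -0.03 with library totals. The first was 0.22 without *db/m* replicate 3, and the last was 0.12 without *db/db* replicate 3. Of all genes, edgeR called 1.24%, 1.05% and 0% in the 3 comparisons, and 13.7%, 18.2% and 5.19% had an unadjusted p under 0.05. These shares stand beside the counts of this list and of those below.

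Of 18 tested relatives among the nuclear receptors, Nr1i2 was the only one called, and it rose in both diabetic groups. It encodes PXR, a sensor of foreign compounds, and was at 4.57, 7.33 and 8.44 CPM in *db/m* mice, 15.6, 16.8 and 14.4 in *db/db* mice and 15.2, 20.0 and 16.0 in *db/db*-dapa mice. All diabetic mice lay above all *db/m* mice. Between *db/db* and *db/m* its log2 fold change was 1.21 (standard error 0.261, adjusted p = 0.0655, from 0.00268 to 0.227 over the alternatives). There the adjusted p was 0.227 and 0.143 without *db/m* replicates 1 and 2, 0.105 and 0.144 without *db/db* replicates 1 and 2, and, of the treated mice, 0.122 without replicate 2 and 0.112 without replicate 3, and it was 0.186 with only the 2 groups compared. Between treated and *db/m* mice it was 1.34 on the log2 scale (standard error 0.257, adjusted p = 0.055, from 0.000498 to 0.336 over the alternatives). The adjusted p was then 0.197 and 0.118 without *db/m* replicates 1 and 2 and 0.336 and 0.187 without *db/db*-dapa replicates 2 and 3. In the remaining comparison 0 of 18 were called by edgeR, DESeq2, limma or limma-voom, with 0 at an unadjusted p under 0.05.

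None of the direct relatives of the members among these receptors was called. Rxrb, which can replace RXRA as a partner, was at 48.8, 60.7 and 77.3 CPM in *db/m*, 67.0, 45.4 and 47.2 in *db/db* and 51.0, 48.4 and 53.2 in *db/db*-dapa mice, and Rxrg was at most 2.41 CPM in any mouse. Rxra had the highest mean of the retinoid X receptor genes, 29.8 CPM per kilobase against 21.1 for Rxrb and 0.634 for Rxrg, although per kilobase Rxrb was above Rxra in *db/m* replicate 3 and *db/db* replicate 1. Ppard was at 3.84 CPM per kilobase and Pparg at 0.134, against 43.5 for Ppara. Ppard was higher in all treated than in all other mice only narrowly, at 17.3, 17.3 and 16.3 CPM against 15.01 at most, with a log2 fold change from *db/m* of 0.52 (adjusted p = 0.239). The liver X receptor genes Nr1h2 and Nr1h3, related to Nr1h4, lay at 40.9 and 27.2 CPM per kilobase. Nr1h3 had log2 fold changes of -0.46, -0.18 and 0.28 in the 3 comparisons, with adjusted p-values of 0.312 or more. Vdr, the vitamin D receptor gene, had the highest mean of this list over all mice, 52.3 CPM per kilobase, followed by Nr2f6 at 46.9. That rank held for Vdr in *db/db* (55.11) and *db/db*-dapa mice (62.05). In *db/m* mice its mean, 39.75 CPM per kilobase, was below those of Nr2f6 (48.56) and Nr1h2 (42.04). In every diabetic mouse Vdr (202.5 to 314 CPM) was above every *db/m* mouse (at most 198 CPM), with log2 fold changes of 0.47 and 0.64 (adjusted p of 0.386 and 0.208). Nr1h5 and Nr5a2 did not pass the filter. The list had medians of 0.05, 0.17 and 0.17. Leaving out replicate 3 of *db/m* moved the first to 0.17 and leaving out that of *db/db* to 0.10. With limma-voom the first was 0.18 and the second 0.33.

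Coregulators, the proteins that nuclear receptors recruit to DNA, have long transcripts, and their values against *db/m* were smaller with the length offset. Their first and last medians also moved with 1 library. Of 15 tested, 13 were positive in *db/db* against *db/m* mice (median log2 fold change 0.33) and 12 in treated against *db/m* mice (0.31), but with the length offset these were 10 (0.14) and 8 (0.00). Without *db/db* replicate 3 the first median was 0.09 with 12 positive, and with limma-voom it was 0.13. Between treated and untreated *db/db* mice the median was -0.02, but 0.20 with limma-voom and 0.24 with replicate 3 of the untreated mice left out. The median transcript of the list is 7868 bases long. In edgeR's test 0 of 15 were called in any comparison, with 4, 6 and 1 at an unadjusted p under 0.05. DESeq2 called 2, 2 and 0, limma 0 each time and limma-voom 0, 2 and 0, and edgeR without *db/db* replicate 3 called 0, 2 and 0. Ppargc1a, the coactivator PGC-1 alpha, was at 53.4, 57.2 and 49.96 CPM in *db/m*, 91.8, 73.8 and 95.4 in *db/db* and 61.8, 76.5 and 98.1 in *db/db*-dapa mice, with all diabetic mice above all *db/m* mice. Its log2 fold change between *db/db* and *db/m* was 0.70 (standard error 0.196, adjusted p = 0.152), and 0.47 with the length offset. Crebbp had values of 1.22 and 1.17 against *db/m* (adjusted p of 0.178 and 0.176), and Nrip1 had 1.66 and 1.65 (0.233 and 0.204). Over the alternatives those of Crebbp ranged from 0.804 to 1.4 and from 0.66 to 1.45. Those of Nrip1 ranged from 0.925 to 1.99 and from 1.24 to 2.01. Each was called in 1 of 21 alternatives in *db/db* mice, and in treated mice Crebbp was called in 5 and Nrip1 in 4. Of the most abundant, Ncor1 (17.1 CPM per kilobase) had 0.47 in treated against *db/m* mice and 0.00 with the offset. Prmt1 (16.0 CPM per kilobase) was at 27.5, 26.5 and 27.9 CPM in *db/db*-dapa mice, below all *db/m* mice at 40.2, 35.8 and 39.7, with a log2 fold change of -0.50 (adjusted p = 0.239). Tbl1xr1 was lower in all treated than in all *db/db* mice, at -0.24.

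Of the Pax and Maf relatives, 6 of 13 passed the filter. Pax1, Pax3, Pax4, Pax5, Pax7, Mafa and Nrl did not pass. Pax9 was at most 0.792 CPM and Pax6 at most 2.00 CPM in any mouse, so that Pax2 and Pax8 were the main Pax genes of these cells. Mafk, a small Maf protein gene, had values of -0.31, -0.14 and 0.17. In edgeR's test 0 of 6 were called in any comparison, with 1, 1 and 0 at an unadjusted p under 0.05, and DESeq2, limma and limma-voom called 0. The medians were -0.04, -0.20 and 0.09, the first positive (0.04) with library totals. It was -0.33 without *db/m* replicate 3 and -0.26 with limma-voom, and the last was 0.00 without *db/db* replicate 3.

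Among genes known as targets of PPARA, Cyp4a14, a fatty acid hydroxylase, rose in *db/db*-dapa mice. It was at 63.2, 67.0 and 131 CPM in *db/m*, 70.0, 633 and 1411 in *db/db* and 711, 816 and 1198 in *db/db*-dapa mice. On the log2 scale the change from *db/m* was 3.39 (standard error 0.774, adjusted p = 0.0924, from 0.00121 to 0.336 over the alternatives). The adjusted p was 0.306, 0.168 and 0.244 without *db/m* replicates 1, 2 and 3, 0.117 without *db/db* replicate 2, 0.154 with limma and, of the treated mice, 0.336 without replicate 2 and 0.263 without replicate 3. In *db/db* mice the value was 3.02 (adjusted p = 0.108), and those mice ranged from the *db/m* level in replicate 1 to the highest of all in replicate 3. Some Cyp4a genes are close copies of each other, and reads shared between them make their counts uncertain. Cyp4a12a, of the same family, was at 283, 430 and 239 CPM in *db/m*, 108, 118 and 205 in *db/db* and 225, 262 and 306 in *db/db*-dapa mice. Its log2 fold change was -1.13 in *db/db* against *db/m* (adjusted p = 0.108) and 0.87 in treated against untreated *db/db* mice (adjusted p = 0.854), so that it lay in the other direction from Cyp4a14 in untreated mice. Creb3l3, a partner of PPARA in fasting, was near the detection limit, at most 1.39 CPM.

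Over the 27 PPARA targets tested, 15 were positive in *db/db* against *db/m*, 21 in *db/db*-dapa against *db/m* and 23 in treated against untreated *db/db* mice. The medians were 0.08, 0.22 and 0.25, and the first turned to -0.09 without *db/db* replicate 3 and to -0.08 with limma-voom, while with the length offset 20 were positive there. The last median was 0.46 without *db/db* replicate 3. Against *db/m*, edgeR called 1 of 27 in untreated and 2 of 27 in treated mice, against 1.24% and 1.05% of all genes. At an unadjusted p under 0.05 there were 6 and 10, against 13.7% and 18.2% of all genes. DESeq2 called 4 and 4 there, limma 1 and 1 and limma-voom 2 and 8. With *db/db* replicate 3 left out edgeR called 3 and 8, and 1 between treated and untreated mice. Between treated and *db/m* mice 13 of 27 were without overlap (48.1%, against 28.1% of all genes), 12 of them higher. In the last comparison 0 were called in edgeR's test, 2 had an unadjusted p under 0.05, DESeq2 and limma called 0 and limma-voom called 2. Fgf21, a hormone gene of the liver, did not pass the filter. In this list Ppara itself had no called change, and a test of Ppara against its targets was not made.

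In a list of 22 genes of the tubule around the targets of HNF4A, Apob rose and Slc17a3 fell in *db/db* mice. Apob, the apolipoprotein of lipid export, was at 153, 218 and 81.9 CPM in *db/m*, 635, 290 and 397 in *db/db* and 215, 249 and 237 in *db/db*-dapa mice. Its log2 fold change between *db/db* and *db/m* was 1.54 (standard error 0.348, adjusted p = 0.0754, from 0.00152 to 0.26 over the alternatives). Its transcript is 13934 bases long, and with the length offset the value was 1.14 with an adjusted p of 0.163. The adjusted p was 0.26 and 0.16 without *db/m* replicates 1 and 3, 0.163 without *db/db* replicate 1, 0.102 with limma, 0.157 with only the 2 groups compared and, of the treated mice, 0.133 without replicate 2 and 0.117 without replicate 3. Slc17a3, an organic anion and urate transporter gene, was at 664, 675 and 862 CPM in *db/m*, 232, 267 and 411 in *db/db* and 577, 432 and 537 in *db/db*-dapa mice. It fell by 1.27 on the log2 scale in *db/db* mice (standard error 0.235, adjusted p = 0.0319, from 2.75e-05 to 0.113 over the alternatives). That call was lost without *db/m* replicates 1 and 3 (adjusted p of 0.101 and 0.111) and without *db/db* replicate 2 (0.113). The mean of the treated mice lay between those of the other groups for both genes. Between treated and untreated *db/db* mice the log2 fold change was -0.91 (95% interval -1.66 to -0.16) for Apob and 0.76 (95% interval 0.25 to 1.27) for Slc17a3, both with an adjusted p of 0.854. Without *db/db* replicate 3 Slc17a3 was called there, at 1.06.

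The rest of that list did not pass. G6pc, the glucose-releasing phosphatase of gluconeogenesis, was at 365, 272 and 371 CPM in *db/m*, 547, 435 and 825 in *db/db* and 502, 697 and 861 in *db/db*-dapa mice, with every diabetic mouse above every *db/m* mouse. Its log2 fold change between treated and *db/m* mice was 1.03 (adjusted p = 0.122), and with the length offset it was called, at 1.11 with an adjusted p of 0.0978. Slc22a8, an organic anion transporter, was at 704, 549 and 742 CPM in *db/m* against 1018, 1331 and 1013 in *db/db* and 985, 992 and 1100 in *db/db*-dapa mice. Its values of 0.75 and 0.63 against *db/m* had adjusted p-values of 0.103 and 0.167. Of the 22 genes, 14, 17 and 13 were positive in the 3 comparisons, with medians of 0.24, 0.39 and 0.16. The first was 0.11 with 12 positive when *db/db* replicate 3 was left out, and the last was 0.10 with library totals. Between treated and *db/m* mice, 13 of 22 were without overlap (59.1%, against 28.1% of all genes), 11 of them higher and 2 lower. In edgeR's test 0 were called with 10 at an unadjusted p under 0.05 (18.2% of all genes had such a p), and DESeq2, limma and limma-voom called 2, 0 and 1. Between treated and untreated *db/db* mice, 0 were called with 3 at an unadjusted p under 0.05, and those tools called 0, 0 and 1. With *db/db* replicate 3 left out edgeR called 3, 2 and 2 of the 22 in the 3 comparisons.

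Among FXR targets, the basolateral bile acid and steroid transporter gene Slc51a fell in *db/db* mice under every alternative. It was at 123, 139 and 151 CPM in *db/m*, 67.3, 67.2 and 53.4 in *db/db* and 104, 96.1 and 67.6 in *db/db*-dapa mice, without overlap between the first and either of the others. It fell by 1.14 on the log2 scale (standard error 0.198, adjusted p = 0.0239, from 1.84e-05 to 0.0855 over the alternatives) and was called in 21 of 21. Between treated and *db/m* mice the value was -0.63 (adjusted p = 0.172), and between treated and untreated *db/db* mice it was 0.51 (95% interval 0.08 to 0.94, adjusted p = 0.854). Nr0b2, the classic FXR target SHP, was at most 0.680 CPM, with no more than 4 counts in any library. Abcc2, an organic anion pump, was at 273, 260 and 163 CPM in *db/m* and 401, 713 and 885 in *db/db*-dapa mice, with a log2 fold change of 1.52 (adjusted p = 0.142) and 1.09 with the length offset. Pltp was at 28.0, 19.2 and 30.2 CPM in *db/m* and 16.8, 10.8 and 9.05 in *db/db*-dapa mice. Of 8 tested of 11, the medians were 0.39, 0.33 and 0.00. With limma the first 2 were 0.18 and 0.13, with the length offset 0.61 and 0.55, and with limma-voom the last was -0.20. Without *db/m* replicate 3 the second was 0.22. Between treated and *db/m* mice edgeR called 0 with 3 at an unadjusted p under 0.05, and DESeq2, limma and limma-voom called 1, 0 and 2. Between treated and untreated *db/db* mice it called 0 with 1, and those tools called 0, 0 and 1. With *db/db* replicate 3 left out edgeR called 2 and 1 in these 2 comparisons.

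Of 5 targets of PAX2 and PAX8, 4 were tested and 0 were called by edgeR, with 1, 2 and 0 at an unadjusted p under 0.05. DESeq2 and limma called 0 in each comparison, and limma-voom called 1 in treated against *db/m* mice. Lhx1 was at 8.19, 5.23 and 5.77 CPM in *db/m*, 11.2, 7.20 and 18.3 in *db/db* and 10.1, 11.2 and 14.9 in *db/db*-dapa mice, with log2 fold changes of 0.95 and 0.91 against *db/m* (adjusted p of 0.266 and 0.229). Gata3, which the collecting duct also expresses, reached 19.3 CPM in *db/m* replicate 3, the mouse with the most collecting duct RNA. Wt1, which podocytes also express, reached 6.39 CPM in *db/db*-dapa replicate 1, the mouse with the most podocyte RNA. The medians of this list, 0.13, -0.17 and -0.52, moved with 1 library, and without *db/m* replicate 3 the first and second were 0.88 and 0.44. The first was also 0.30 without *db/db* replicate 3, 0.49 with limma-voom and 0.04 with limma. With limma the third was -0.08, and with limma-voom it was -0.80. The length offset gave 0.08 for the first and -0.32 for the second.

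**Figure D3:**
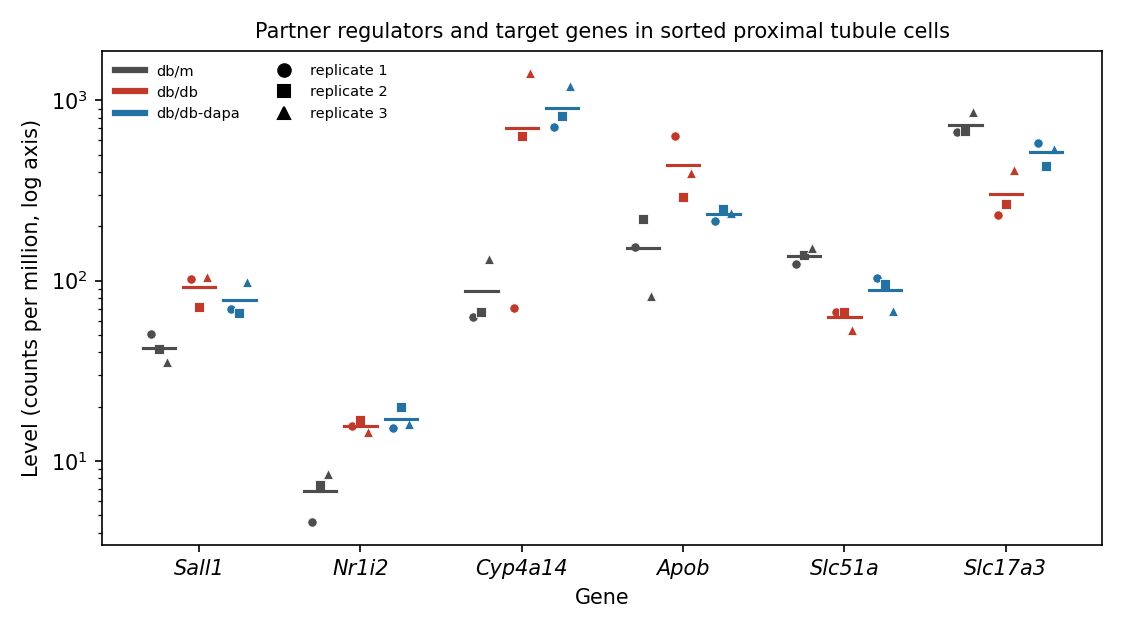
Level in CPM on a log axis of regulators (Sall1, Nr1i2) and target genes (Cyp4a14, Apob, Slc51a, Slc17a3), with a point for each mouse and a bar for the group mean of 3 mice. Sall1 and Nr1i2 are higher in each diabetic than in each *db/m* mouse, and Slc51a and Slc17a3 are lower.

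Promoters of the members were searched for binding motifs, of which that of nuclear receptors is given here, since 5 of the 8 genes encode such receptors. Results of another motif are left out of the text. RefSeq promoter entries on GRCm38.p6 matched 6 of the 8 members, Hnf4a, Ppara, Rxra, Nr1h4, Pax2 and Pax8, with 10 start sites, and Hnf4g and Maf had no entry. In the 250 bases before each start, the nuclear receptor half-site AGGTCA or its reverse TGACCT was found in 2 of 10 windows, against 14.0% of 32851 windows of all genes. A direct repeat of it, AGGTCANAGGTCA or TGACCTNTGACCT, was found with at most 2 mismatches in 2 of 10, against 3.24%, in Rxra and Nr1h4. A match is a description of letters and not a binding site.

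The windows with a direct repeat are printed from 5′ to 3′ on the strand of the gene. Rxra had the largest value between treated and untreated mice in the main test, though not without *db/db* replicate 3. Nr1h4 is among the most abundant of the members. Capitals mark the match, and neither window holds annotated exon bases. That of Rxra is chr2:27709042-27709291 (plus strand), in introns of longer Rxra transcripts. That of Nr1h4 is chr10:89506659-89506908 (minus strand), in an intron of a longer Nr1h4 transcript.
Rxra: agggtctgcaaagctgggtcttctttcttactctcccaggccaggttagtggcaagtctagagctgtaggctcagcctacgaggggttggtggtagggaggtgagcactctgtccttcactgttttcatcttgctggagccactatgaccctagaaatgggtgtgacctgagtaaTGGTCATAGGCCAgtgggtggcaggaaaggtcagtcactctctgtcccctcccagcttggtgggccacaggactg
Nr1h4: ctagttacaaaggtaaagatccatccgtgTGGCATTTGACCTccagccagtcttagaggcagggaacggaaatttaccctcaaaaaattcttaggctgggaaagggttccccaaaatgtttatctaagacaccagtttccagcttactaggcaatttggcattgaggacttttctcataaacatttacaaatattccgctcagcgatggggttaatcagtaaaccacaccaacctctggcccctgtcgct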

How the data were processed

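Poly(A) RNA-seq of FACS-sorted proximal tubular cells was used from 9 mice, 3 in each of 3 groups. The authors aligned single-end reads to mm10 with TopHat2 2.0.13 and Bowtie2 2.2.3, with SAMtools 0.1.19 and Cufflinks 2.2.1, and deposited a table named FPKM whose values have the form of estimated counts. Values were rounded and tested with edgeR 4.0.16 in R 4.3.3 by its quasi-likelihood test on all 9 mice with TMM factors, with Benjamini-Hochberg adjustment over 15583 genes at 0.3 CPM or more in at least 2 mice. Library totals were from 2733314 to 9033062. The standard error is the absolute log2 fold change over the square root of F, and with 3 mice against 3 an exact permutation test cannot go below 0.1. Alternatives were DESeq2 1.42.0, limma 3.58.1 on log2(CPM + 1), limma-voom with sample quality weights, other filters and scalings, only the 2 groups compared, a replicate block, each library left out and, chosen after seeing the data, a length offset. Names were matched to GENCODE vM21, 23350 by symbol and 668 by older symbol, with 401 unmatched. Members and lists were chosen with earlier results of these data known. Of each other list the genes named are those with an adjusted p under 0.1 (up to 6 a comparison), otherwise the 2 with the smallest p, the 2 most abundant per kilobase of the regulator lists, and dimer partners and paralogs of members; some genes this rule names are left out of the text. Only edgeR's test, with and without the length offset, and limma on log2(CPM + 1) were tested on simulated data. There, changes were planted in *db/db* mice and every gene had the same dispersion. Figures were drawn with matplotlib 3.10.9 in Python 3.11.15.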

Additional observations from a re-analysis of the deposited data

How the results depend on the processing

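No member was called under any alternative, and the cause of the values that moved was not tested. Genes called in *db/db* against *db/m* were 194, with 363 by DESeq2 and 115 with only the 2 groups compared, and from 85 (without *db/m* replicate 1) to 230 (without *db/db* replicate 3) with 1 library left out. In *db/db*-dapa against *db/m* they were 164, with 507 by DESeq2, 1619 by limma-voom, 275 with no filter and 630 with only the 2 groups compared, and from 14 (without *db/db*-dapa replicate 2) to 664 (without *db/db* replicate 3). In *db/db*-dapa against *db/db* they were 0, with 13 by DESeq2 and 449 by limma-voom, and from 0 to 272 (without *db/db* replicate 3). A block for the replicate number gave 185, 167 and 0 genes and 0 members. Library totals moved the median of all genes to 0.125 in *db/db* against *db/m* and the called genes to 141 higher and 93 lower, from 85 and 109.

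With the length offset 1 member was without overlap in *db/db* against *db/m*. Of 552 recomputed log2 fold changes of members, 21 changed direction. By limma-voom in *db/db* against *db/m* they were -0.161 (Hnf4a), -0.00868 (Hnf4g) and -0.178 (Rxra). With the length offset Rxra was at -0.0774 and Nr1h4 at 0.13 there, and Maf at -0.0162 in *db/db*-dapa against *db/db*. Nr1h4 was at 0.0896 with library totals and 0.00667 with upper quartile factors. With 1 library left out, *db/db* against *db/m* ranged from -0.218 to 0.25 (Hnf4a), -0.212 to 0.717 (Hnf4g), -0.209 to 0.117 (Nr1h4) and -0.311 to 0.264 (Rxra). The same ranges in *db/db*-dapa against *db/db* were -0.0603 to 0.876 (Hnf4g), -0.13 to 0.268 (Maf), -0.0271 to 0.206 (Pax8) and -0.334 to 0.12 (Ppara).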
